A study of Homo sapiens with 12 samples.

Results

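The genes described here encode 10 subunits of the Polycomb repressive complexes: EZH1, EZH2, EED, SUZ12, JARID2 and MTF2 of PRC2, and RING1, RNF2, BMI1 and CBX2 of PRC1. They are a list of named subunits drawn up with earlier results of these data known, and each was found under its symbol in all 12 count files, so they make 10 of the 60645 gene names listed. All 10 passed the filter on low counts that left 20377 genes for testing. PolyA RNA had been sequenced from HEK-293T, a human embryonic kidney line, and in all 6 groups ARID1A had been knocked out, which encodes a DNA-binding member of SWI/SNF (BAF), a complex that remodels chromatin. These knockout cells were made to overexpress wild-type ARID1A (WT), ARID1A lacking the segment IDR1b (ΔIDR1b), or an empty vector (here "no ARID1A"), and on top of that either EWS-FLI1, the fusion oncoprotein of Ewing sarcoma, or a further empty vector. Each of the 6 combinations has 2 libraries, numbered as repeats 1 and 2. The treatment text, which is the same for every sample, gives 2 µg of a pcDNA plasmid for EWS-FLI1 and 48 h of growth afterwards. It does not say how ARID1A was introduced, whether the knockout line is a single clone, or whether repeats are separate cultures, so p-values measure only the spread between these libraries.

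The libraries held 11702251 to 14445379 counts, and each Polycomb gene had between 430 and 3362 counts in every library. ARID1A stood at 147 to 164 CPM (counts scaled to equal library totals, with TMM factors of 0.9321 to 1.076) in the 4 libraries without ARID1A, at 1839 to 2287 CPM with WT and at 2604 to 2873 CPM with ΔIDR1b. The remaining level in the knockout shows transcript, which does not say whether protein is made, and the ΔIDR1b libraries thus carried more ARID1A transcript than the WT libraries; the part of this gap in the results below was not tested. FLI1 was at 0.146 CPM or less in all 6 libraries without EWS-FLI1 and at 1686 to 3669 CPM in the 6 with it. The fusion groups were unequal: FLI1 was at 3669 and 3456 CPM with WT, 1827 and 1686 CPM without ARID1A and 1884 and 1903 CPM with ΔIDR1b. WT exceeded no ARID1A by log2 1.02 ± 0.09 (SE, edgeR adjusted p = 7.88e-10), and the part of this gap in the comparisons of WT with EWS-FLI1 was not tested. Markers of the HEK-293 line were present (PAX2 7.85 to 11.5 CPM, NEFL 42.1 to 80.7 CPM, KRT8 229 to 402 CPM), apart from NEFM, which had 0 counts in 10 of 12 libraries. Among genes of other lineages, PTPRC and CD3E of blood cells had 0 counts in 10 and 11 of 12 libraries, while COL1A1 of fibroblasts reached 72.9 to 105 CPM. The repeats of 1 group lay furthest apart for the Polycomb genes: with WT and EWS-FLI1, 8 of the 10 were lower in repeat 2 than in repeat 1, with a median of 79.3% of repeat 1 against 99.9% over all genes. With 2 libraries this cannot show which of them deviates. Calls of members that rest on this group are therefore given with and without its repeats. Medians of the other groups were 92.3% to 108%. With ΔIDR1b and the empty vector the members also leaned to 1 side: 1 of the 10 was lower in repeat 2, with a median of 106% against 99.3% over all genes.

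PRC2 trimethylates a lysine in the tail of histone H3, a mark of silenced developmental genes. EZH1 and EZH2 are its alternative methyltransferases, EED binds the finished mark and stimulates the enzyme, SUZ12 is the scaffold, and JARID2 and MTF2 help to bring the complex to its sites. PRC1 ubiquitinates histone H2A through the paired RING proteins RING1 or RNF2 and a PCGF protein such as BMI1, and its CBX subunits read the mark laid by PRC2. SWI/SNF and Polycomb are textbook antagonists at shared chromatin sites.

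Promoter sequences are shown for the 4 members that held a word of the E2F type, because cell-cycle E2F factors are known regulators of PRC2 genes. The part of these factors in the levels below was not tested. The E2F words searched on both strands were TTTGGCGC, TTTCCCGC, TTTCGCGC and TTTGCCGC, and no member promoter held more than 1. RefSeq promoters (GRCh38.p14, 250 bases before to 50 bases after the start) matched 9 of the 10 members, all but CBX2. Capitals mark the word, and each sequence is written 5′ to 3′ on the strand of its gene.
EZH1 (chr17:42744991-42745290, minus strand): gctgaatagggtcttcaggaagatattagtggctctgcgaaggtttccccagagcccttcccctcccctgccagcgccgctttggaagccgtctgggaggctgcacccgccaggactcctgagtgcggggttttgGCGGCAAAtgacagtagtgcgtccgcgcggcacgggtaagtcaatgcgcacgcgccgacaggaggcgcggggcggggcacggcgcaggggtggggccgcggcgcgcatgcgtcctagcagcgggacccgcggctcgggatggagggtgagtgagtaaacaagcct
EZH2 (chr7:148884242-148884541, minus strand): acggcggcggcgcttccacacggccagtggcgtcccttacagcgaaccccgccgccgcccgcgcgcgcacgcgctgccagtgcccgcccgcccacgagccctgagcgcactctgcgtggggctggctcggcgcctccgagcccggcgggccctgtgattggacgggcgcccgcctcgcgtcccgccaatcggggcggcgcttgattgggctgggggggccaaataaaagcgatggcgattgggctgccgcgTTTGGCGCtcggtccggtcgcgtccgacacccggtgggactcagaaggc
MTF2 (chr1:93079033-93079332, plus strand): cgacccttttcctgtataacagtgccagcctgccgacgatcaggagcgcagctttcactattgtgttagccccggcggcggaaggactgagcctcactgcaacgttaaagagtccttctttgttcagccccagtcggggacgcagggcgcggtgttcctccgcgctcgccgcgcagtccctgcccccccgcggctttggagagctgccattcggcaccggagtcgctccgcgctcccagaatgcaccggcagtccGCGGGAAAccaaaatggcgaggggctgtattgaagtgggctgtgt
SUZ12 (chr17:31936757-31937056, plus strand): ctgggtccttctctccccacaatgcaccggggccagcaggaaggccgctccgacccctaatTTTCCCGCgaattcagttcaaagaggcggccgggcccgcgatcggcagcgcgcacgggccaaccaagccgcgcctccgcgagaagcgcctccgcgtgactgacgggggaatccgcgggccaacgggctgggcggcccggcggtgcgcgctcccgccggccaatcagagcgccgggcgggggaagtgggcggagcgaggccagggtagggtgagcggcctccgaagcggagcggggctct
EZH2 carried TTTGGCGC with its first base at the start site itself, and SUZ12 carried TTTCCCGC at position -189. In MTF2 the word TTTCCCGC lay on the opposite strand from position 5, and in EZH1 the word TTTGCCGC lay on the opposite strand from position -115. Any of the 4 words was found in 4 of 9 member promoters and in 3.33% of all 27305 promoters. These were not matched to the members for GC content, which was 63.0% (MTF2) to 74.7% (EZH2) in the 4 promoters shown. The ETS word CCGGAAG was in 0 of the 9 and in 10.7% of all. Shorter or other forms of the ETS site were not searched. A match is a description of these letters, not a binding site.

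Levels between genes were compared per kilobase of the exon length in the files. Over all 12 libraries RING1 (35.9 CPM per kb) and MTF2 (33.5 CPM per kb) were highest, and their ranges over libraries overlapped. EZH1 (15.6), BMI1 (13.2), RNF2 (13) and EZH2 (12.8 CPM per kb) followed, then SUZ12 (9.69), CBX2 (9.04), EED (8.29) and JARID2 (6.15 CPM per kb). Below MTF2, whose lowest library had 21.7 CPM per kb against 20.3 in the highest library of EZH1, each neighbour in this order overlapped the next. The exon length joins all annotated isoforms, 10.8 kb for EZH2, so a gene with many isoforms is placed too low. Fragments in 22.8% of the exon bases of BMI1 and 4.22% of those of EED fall on another gene as well and were not counted. On its unshared bases alone BMI1 came to 17.1 CPM per kb.

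The members fell apart into those that were lower with ΔIDR1b ARID1A and those that were not. Against no ARID1A, EZH1, EZH2, EED, MTF2, RING1 and BMI1 were called lower with the empty vector and again with EWS-FLI1, which are comparisons that share no library. SUZ12 and CBX2 were called higher in the EWS-FLI1 comparison only, and JARID2 and RNF2 were called in neither. Calls are genes with a Benjamini-Hochberg adjusted p under 0.05 in edgeR's quasi-likelihood F-test, 2-sided, over all 20377 genes, and all adjusted p-values below come from it. With the empty vector, 0 members rose and 6 of 10 fell, where 33.3% of all genes were called and 16.8% fell. With EWS-FLI1, 2 members rose and 6 fell, where 35.9% of all genes were called, 18.1% rose and 17.9% fell. The median log2 fold change of the 10 was -0.39 and -0.56, against 0.00 and 0.02 over all genes. Shares over all genes, here and below, were not matched to the members or lists for expression level. They include genes near the filter's minimum count of 10, which are harder to call or to separate by library. The 10 members had 430 counts or more in every library.

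**Figure D1:**
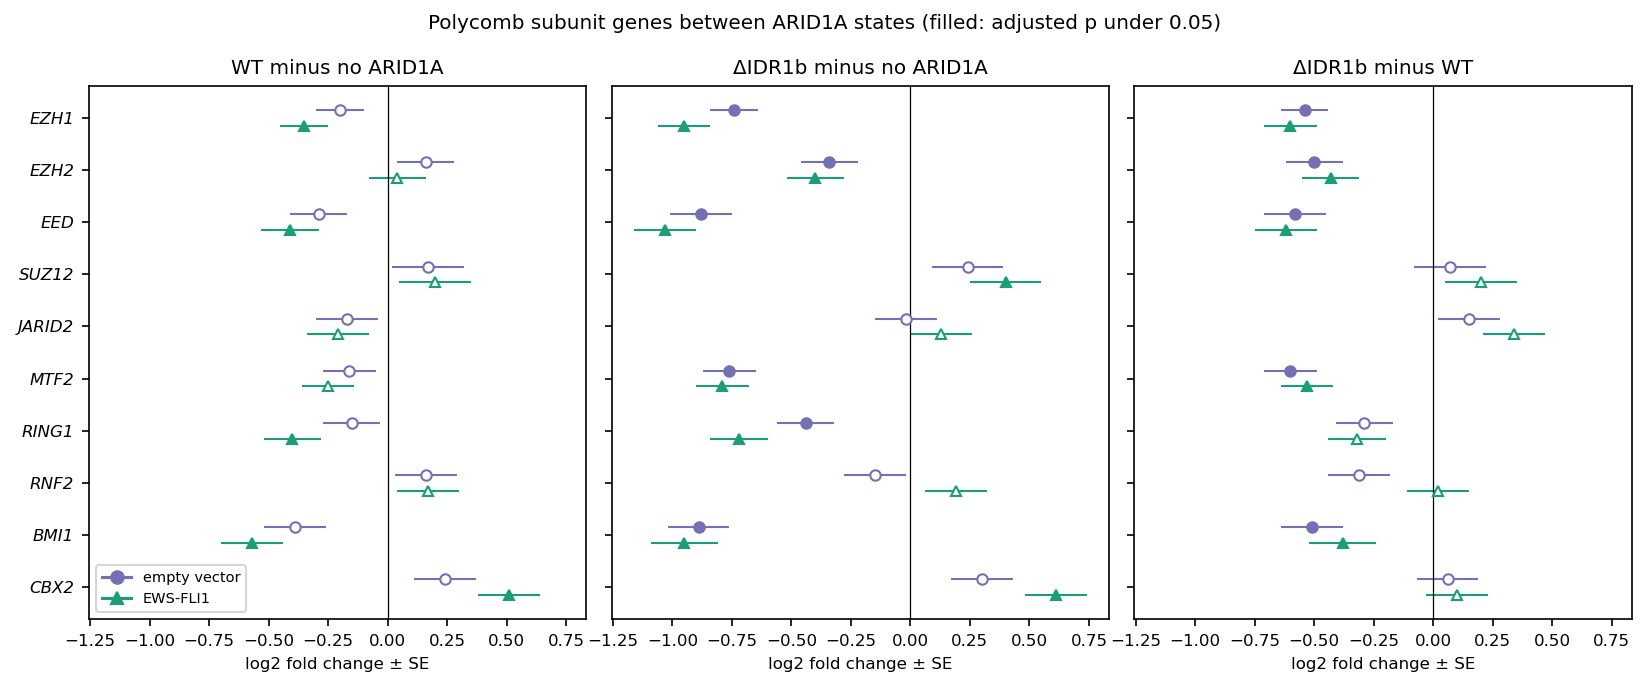
Log2 fold change (x axis) of each Polycomb gene between ARID1A states, with the empty vector (circles) and with EWS-FLI1 (triangles); bars are 1 standard error of the fit and filled symbols have an adjusted p under 0.05. In the middle panel 6 genes lie left of 0 with filled symbols for both vectors, and CBX2 and SUZ12 lie right of 0 with a filled symbol for EWS-FLI1.

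Of the PRC2 enzymes, EZH1 (chr17:42700275-42745049, minus strand, GRCh38), the methyltransferase typical of resting cells, showed the steadier change. EZH1 stood at 141 and 131 CPM without ARID1A, 114 and 122 CPM with WT and 76.8 and 85.4 CPM with ΔIDR1b in the empty-vector libraries. In the EWS-FLI1 libraries it stood at 136 and 142, 109 and 109, and 69.0 and 74.7 CPM. Every ΔIDR1b library was below every WT library, and every WT library was below every library without ARID1A. With ΔIDR1b, EZH1 was at 0.598-fold of its level without ARID1A for the empty vector (log2 -0.74 ± 0.10 SE, adjusted p = 1.18e-06) and at 0.517-fold with EWS-FLI1 (log2 -0.95 ± 0.11, adjusted p = 1.15e-08). Against WT the fall was log2 -0.54 ± 0.10 (adjusted p = 0.000237) and -0.60 ± 0.11 (adjusted p = 0.000128), the latter -0.61 without repeat 1 and -0.60 without repeat 2 of WT with EWS-FLI1.

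EZH2 (chr7:148807257-148884321, minus strand), the methyltransferase of dividing cells, fell by less and did not step down with WT. Its values were 140 and 149 CPM without ARID1A, 145 and 178 CPM with WT and 106 and 121 CPM with ΔIDR1b for the empty vector. With EWS-FLI1 they were 144 and 150, 170 and 132, and 115 and 108 CPM. All 4 ΔIDR1b libraries were below the other 8, while the WT libraries overlapped those without ARID1A. The fall against no ARID1A was log2 -0.34 ± 0.12 (adjusted p = 0.0222) with the empty vector and -0.40 ± 0.12 (adjusted p = 0.00777) with EWS-FLI1, and against WT it was -0.50 ± 0.12 (adjusted p = 0.00164) and -0.43 ± 0.12 (adjusted p = 0.00869). Each of these calls is lost without single libraries: against no ARID1A without either empty-vector library of that state (adjusted p = 0.054 and 0.158), repeat 1 of ΔIDR1b with the empty vector (0.242), repeat 2 of no ARID1A with EWS-FLI1 (0.075) or repeat 2 of ΔIDR1b with EWS-FLI1 (0.0684). Against WT they are lost without repeat 2 of WT (0.0816) or repeat 1 of ΔIDR1b (0.0563) with the empty vector, and without repeat 1 of WT (log2 -0.24, 0.154) or repeat 2 of ΔIDR1b (0.0721) with EWS-FLI1. Without repeat 2 of WT with EWS-FLI1, the fall against WT was -0.61.

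EED (chr11:86244753-86278813, plus strand), the reader subunit of PRC2, had the largest fall against no ARID1A among the 10 with EWS-FLI1. With the empty vector it measured 69.1 and 78.4 CPM without ARID1A, 59.0 and 61.4 CPM with WT, and 39.3 and 41 CPM with ΔIDR1b. With EWS-FLI1 it measured 75.4 and 71.4, 62.2 and 48.5, and 35.6 and 36.2 CPM. As for EZH1, the 3 states were separated in every library. The fall with ΔIDR1b was log2 -0.88 ± 0.13 (adjusted p = 1.39e-06) and -1.03 ± 0.13 (adjusted p = 7.72e-08) against no ARID1A, or 0.545-fold and 0.489-fold. It was -0.58 ± 0.13 (adjusted p = 0.000803) and -0.62 ± 0.13 (adjusted p = 0.000658) against WT, the latter -0.44 without repeat 1 and -0.80 without repeat 2 of WT with EWS-FLI1.

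SUZ12 (chr17:31937007-32001038, plus strand), the scaffold that binds EED and either enzyme, went the other way in value. In the empty-vector libraries it was at 56.4 and 57.6 CPM without ARID1A, 59.9 and 68.3 CPM with WT and 65.0 and 69.8 CPM with ΔIDR1b. In the EWS-FLI1 libraries it was at 59.7 and 51.2, 78.1 and 49.5, and 81.6 and 64.9 CPM. All 4 ΔIDR1b libraries were above all 4 without ARID1A, and the WT libraries overlapped both. The rise against no ARID1A was called with EWS-FLI1 (log2 0.40 ± 0.15, adjusted p = 0.0326) and not with the empty vector (log2 0.24 ± 0.15, 95% interval -0.06 to 0.54, adjusted p = 0.217). The call is lost in DESeq2 (adjusted p = 0.0681), without repeat 2 of no ARID1A (0.27) and without repeat 1 of ΔIDR1b (0.372), each with EWS-FLI1. Against WT, SUZ12 was not called (log2 0.07 and 0.20, adjusted p = 0.766 and 0.371). With EWS-FLI1 that value rests on the repeats of WT: it was called higher without repeat 1 (0.56, adjusted p = 0.00285) and was -0.10 (0.659) without repeat 2. The subunits of the PRC2 core thus did not keep a fixed ratio of transcripts, as shown further below.

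Of the PRC2 accessory subunits, MTF2 (chr1:93079235-93139079, plus strand), a Polycomb-like protein that binds unmethylated CpG DNA, fell in every comparison with ΔIDR1b. Its empty-vector values were 232 and 251 CPM without ARID1A, 205 and 227 CPM with WT and 142 and 143 CPM with ΔIDR1b. Its EWS-FLI1 values were 239 and 245, 225 and 181, and 152 and 128 CPM. The 3 states were again separated in every library. Against no ARID1A the fall was log2 -0.76 ± 0.11 (adjusted p = 1.39e-06) and -0.79 ± 0.11 (adjusted p = 6.49e-07), and against WT it was -0.60 ± 0.11 (adjusted p = 0.000114) and -0.53 ± 0.11 (adjusted p = 0.000662). Without repeat 1 or repeat 2 of WT with EWS-FLI1 the last value was -0.37 or -0.68.

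JARID2 (chr6:15246069-15522042, plus strand), which binds nucleosomes and PRC2, was called in none of the comparisons as fitted. It ranged from 34.4 to 43.4 CPM without ARID1A, from 31.9 to 36.4 CPM with WT and from 36.5 to 47.3 CPM with ΔIDR1b. These ranges overlapped between no ARID1A and either ARID1A state. The 95% interval of its log2 change with ΔIDR1b against no ARID1A was -0.29 to 0.25 with the empty vector and -0.14 to 0.39 with EWS-FLI1. Against WT with EWS-FLI1 all ΔIDR1b libraries were higher, by log2 0.34 ± 0.13, at an adjusted p of 0.0677. That difference was 0.36 (adjusted p = 0.0991) without repeat 1 and 0.31 (0.146) without repeat 2 of WT, and it passed the threshold with upper-quartile factors (0.38, adjusted p = 0.0428).

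In PRC1 the RING proteins differed. RING1 (chr6:33208500-33212722, plus strand), a catalytic RING subunit, measured 83.6 and 70.6 CPM without ARID1A, 69.4 and 69.6 CPM with WT and 62.1 and 51.5 CPM with ΔIDR1b with the empty vector. With EWS-FLI1 it measured 79.4 and 79.0, 61.9 and 58.4, and 44.2 and 52.3 CPM. All ΔIDR1b libraries lay below all libraries without ARID1A, and 1 of them lay within the range of WT. The fall against no ARID1A was log2 -0.44 ± 0.12 (adjusted p = 0.00524) and -0.72 ± 0.12 (adjusted p = 2.4e-05). The first is lost without repeat 1 of no ARID1A (adjusted p = 0.143) or repeat 2 of ΔIDR1b (0.153). Against WT the values were -0.29 (adjusted p = 0.0803) and -0.32 (adjusted p = 0.0684), which missed the threshold. Without repeat 1 or repeat 2 of WT with EWS-FLI1 the second was -0.28 (adjusted p = 0.164) or -0.36 (0.044), and the first, which uses neither library but shares the fitted spread with them, passed the threshold in both cases (0.0341 and 0.0343).

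RNF2 (chr1:185045526-185102603, plus strand), the other RING subunit and the main one in many cell types, was called in no comparison as fitted. It ranged from 45.6 to 54.2 CPM without ARID1A, from 45.9 to 61.1 CPM with WT and from 44.3 to 57.4 CPM with ΔIDR1b, and all 3 ranges overlapped. Its change with ΔIDR1b against no ARID1A had 95% intervals of -0.42 to 0.12 and -0.08 to 0.47 on the log2 scale, with opposite signs of the estimates. Against WT with the empty vector both ΔIDR1b libraries were lower, by log2 -0.31 ± 0.13 at an adjusted p of 0.091, which fell to 0.0325 and 0.0318 when repeat 1 or repeat 2 of WT with EWS-FLI1 was left out of the shared fit. Against WT with EWS-FLI1 the difference was 0.02, or 0.24 and -0.18 without repeat 1 and repeat 2 of WT, neither of them called.

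BMI1 (chr10:22321099-22331484, plus strand), the PCGF partner of the RING proteins in canonical PRC1, fell by about as much as EED. With the empty vector it was at 74.5 and 86.5 CPM without ARID1A, 61.9 and 61.3 CPM with WT and 41.2 and 45.6 CPM with ΔIDR1b. With EWS-FLI1 it was at 68.7 and 80.4, 57.6 and 42.5, and 41.3 and 35.7 CPM. Both ARID1A states lay below all libraries without ARID1A, and repeat 2 of WT with EWS-FLI1 fell into the range of ΔIDR1b. The fall with ΔIDR1b against no ARID1A was log2 -0.89 ± 0.13 (adjusted p = 3.3e-06) and -0.95 ± 0.14 (adjusted p = 1.16e-06), or 0.539-fold and 0.517-fold. Against WT it was -0.51 ± 0.13 (adjusted p = 0.00564) with the empty vector, lost without repeat 1 of ΔIDR1b (0.0871), and -0.38 ± 0.14 (adjusted p = 0.0486) with EWS-FLI1. The latter is lost in 15 of 21 alternatives, with adjusted p-values from 0.000923 to 0.546 over all of them and values of -0.15 and -0.59 without repeat 1 and repeat 2 of WT.

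CBX2 (chr17:79778148-79787983, plus strand), a reader subunit of PRC1 that also compacts nucleosomes, was the one member with a call in the upward direction in more than 1 comparison. It stood at 45.9 and 42.4 CPM without ARID1A, 57.9 and 46.3 CPM with WT and 51.7 and 56.8 CPM with ΔIDR1b with the empty vector. In the EWS-FLI1 libraries it stood at 40.2 and 39.5, 53.7 and 59.4, and 56.7 and 64.6 CPM. Every library with either ARID1A was above every library without, and WT and ΔIDR1b overlapped. The rise with ΔIDR1b against no ARID1A was log2 0.61 ± 0.13 (adjusted p = 0.000355) with EWS-FLI1 and 0.30 ± 0.13 (adjusted p = 0.0718) with the empty vector. The latter passed the threshold when repeat 1 or repeat 2 of WT with EWS-FLI1 was left out of the shared fit (0.037 and 0.0368).

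WT ARID1A against no ARID1A compares cells given the intact ARID1A with cells without it, and its changes were smaller. With EWS-FLI1 these groups also differed in FLI1 transcript. With the empty vector 0 of 10 members were called in edgeR, where 11.7% of all genes were. DESeq2 also called 0, and 2 members had an unadjusted p under 0.05. The largest fall was that of BMI1 (log2 -0.39 ± 0.13, adjusted p = 0.0516), which passed the threshold in 8 of 21 alternatives. With EWS-FLI1, CBX2 rose (log2 0.51 ± 0.13, adjusted p = 0.00539), and BMI1 (-0.57 ± 0.13, adjusted p = 0.00253), EED (-0.41 ± 0.12, adjusted p = 0.0191), RING1 (-0.40 ± 0.12, adjusted p = 0.0212) and EZH1 (-0.35 ± 0.10, adjusted p = 0.0159) fell. These are 5 of 10 members, 1 higher and 4 lower, where 18.1% of all genes were called, 9.72% higher and 8.36% lower. The count of 5 dropped to 1 without repeat 1 and to 0 without repeat 2 of no ARID1A with EWS-FLI1. It was 6 without repeat 1 and 3 without repeat 2 of WT with EWS-FLI1, where BMI1 moved to -0.81 and -0.37, and EED to -0.59 and -0.24. RING1 was -0.44 and -0.35, the latter no longer called (adjusted p = 0.0591), EZH1 -0.34 and -0.35, and CBX2 0.58 and 0.43. MTF2 was called lower without repeat 1 (-0.42, adjusted p = 0.0038), and SUZ12 was called higher without repeat 2 (0.50, adjusted p = 0.00477).

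ΔIDR1b and WT differed in the missing segment but also in ARID1A transcript and, with EWS-FLI1, in FLI1 transcript. The comparison cannot tell these apart. All called members were lower with ΔIDR1b than with WT. This did not hold in every alternative with EWS-FLI1: SUZ12 was called higher without repeat 1 of WT, and JARID2 with upper-quartile factors. The members EZH1, EZH2, EED, MTF2 and BMI1 were called lower with the empty vector, 5 of 10 where 24.5% of all genes were called and 13.4% fell. The same 5 members were called lower with EWS-FLI1, where 18.6% of all genes were called and 10.1% fell. Without repeat 1 and repeat 2 of WT with EWS-FLI1, EZH2 was at log2 -0.24 and -0.61 and BMI1 at -0.15 and -0.59. This call of BMI1 was lost in 15 of 21 alternatives and that of EZH2 in 3, those of EZH1, EED and MTF2 in 0. The median of the 10 was -0.41 and -0.35 on the log2 scale, against 0.01 over all genes in both. CBX2, which was higher in value with either ARID1A, had a 95% interval of -0.20 to 0.32 and of -0.15 to 0.36 between them, the latter estimate being 0.03 and 0.17 without repeat 1 and repeat 2 of WT. Leaving out repeat 1 of ΔIDR1b with the empty vector lowered the first count from 5 to 3.

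Read over libraries, EZH1, EED and MTF2 had all 4 libraries without ARID1A above all 4 with WT and these above all 4 with ΔIDR1b. This order was held by 3 of the 10 members and by 3.21% of all genes. All 4 ΔIDR1b libraries were below the other 8 for 4 members, the same 3 and EZH2, and for 11.6% of all genes. The reverse, ΔIDR1b above the other 8, was held by 0 members and by 10.6% of all genes. The calls in both vectors covered 100% of the empty-vector calls and 75% of the EWS-FLI1 calls of ΔIDR1b against no ARID1A (all genes 78.6% and 72.8%), and 100% of both against WT (all genes 55.5% and 73.2%). These shares count calls that are lost without single libraries, such as those of EZH2 in both pairs and of BMI1 against WT. For WT against no ARID1A, 0 of the 5 EWS-FLI1 calls of members were also made with the empty vector, where 0 members were called. Over all genes 46.3% of the EWS-FLI1 calls of that pair were.

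EWS-FLI1 against the empty vector moved none of the 10 members past the threshold. The counts of calls in edgeR were 0 without ARID1A, with WT, with ΔIDR1b and in the average over the 3 states, where 0.0442%, 0.221%, 0.172% and 0.466% of all genes were called. With 2 libraries a group these shares rest on single libraries: with WT it was 1.05% without repeat 1 and 0.58% without repeat 2 of WT with EWS-FLI1, and 0.113% and 0.109% without repeat 1 and repeat 2 of WT with the empty vector. In the average it was 0.727% and 1.43% without repeat 1 and repeat 2 of WT with EWS-FLI1, which also moved ΔIDR1b to 0.336% and 0.331%. DESeq2 called 0 members in each as well, and 0, 1, 1 and 2 members had an unadjusted p under 0.05. In the average the log2 changes ran from -0.19 for BMI1 (95% interval -0.35 to -0.04, adjusted p = 0.462) to 0.17 for JARID2 (0.01 to 0.32, adjusted p = 0.569). All 95% intervals of the average lay between -0.35 and 0.32. One library decides the closest case: without repeat 1 of WT with EWS-FLI1, BMI1 was called lower with WT (log2 -0.53, adjusted p = 0.0383) and in the average (-0.27, adjusted p = 0.0386). The differences between ARID1A states in the effect of EWS-FLI1 (interaction terms) gave 0 called members in edgeR and DESeq2 and 0 with an unadjusted p under 0.05. Over all genes 0.0245% were called for WT and 0.0196% for ΔIDR1b, each against no ARID1A, and 0.0% for ΔIDR1b against WT. Without repeat 1 of WT with EWS-FLI1, 0.218% were called for WT against no ARID1A and 0.118% for ΔIDR1b against WT, with 0 members among them. The intervals of these differences reached from -0.63 to 0.73.

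**Figure D2:**
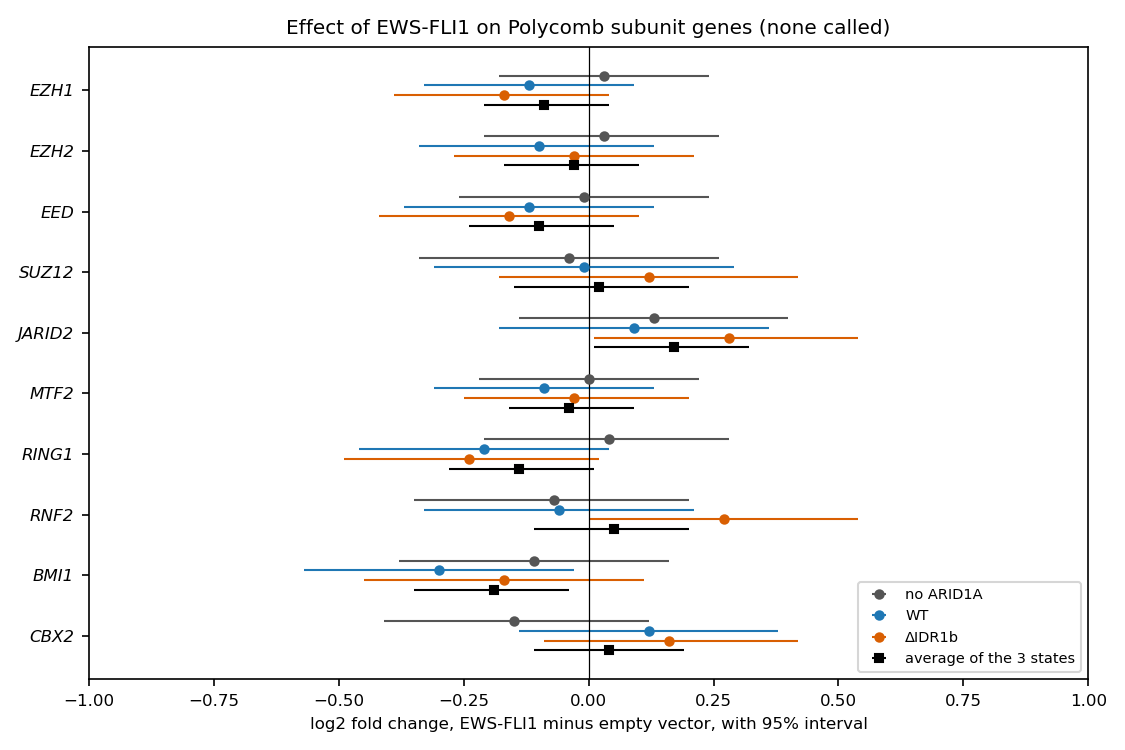
Log2 fold change of EWS-FLI1 against the empty vector (x axis) for each Polycomb gene in the 3 ARID1A states (coloured circles) and averaged over them (black squares), with 95% intervals. None is called, and all averages lie between -0.19 and 0.17.

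Some partners and paralogues moved unequally, so that their ratios per kilobase shifted between states, and others did not. These ratios are descriptions of the same counts, with no test, and the ratio of SUZ12 to EED was chosen after its values were seen. SUZ12 to EED had a median of 0.793 without ARID1A (0.744 to 0.848 over 4 libraries), 1.11 with WT (1.06 to 1.31) and 1.81 with ΔIDR1b (1.72 to 2.38), with no overlap between the states. EZH2 to EZH1 had a median of 0.686 (0.644 to 0.740) without ARID1A, 0.884 (0.783 to 1.01) with WT and 0.930 (0.899 to 1.08) with ΔIDR1b. Both ARID1A states thus lay above no ARID1A and overlapped each other. Without division by exon length the medians were 1.06, 1.36 and 1.44, so the height of this ratio depends on the length used. RNF2 to RING1 was 0.278, 0.378 and 0.431 in the median, with overlapping ranges. BMI1 to its paralogue PCGF2, which both fell with ΔIDR1b, was 1.79 (1.63 to 1.94), 1.68 (1.01 to 1.76) and 1.57 (1.49 to 2.06), and these ranges overlapped as well.

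Other Polycomb genes, from lists chosen with earlier results of these data known, moved in both directions with ΔIDR1b against no ARID1A. To set beside their counts, 33.3% of all genes were called in the empty-vector comparison, 16.4% upward and 16.8% downward, and 35.9% under EWS-FLI1, 18.1% upward and 17.9% downward. Of 9 further PRC2 accessory genes, 2 rose and 4 fell in the empty-vector comparison, and likewise 2 and 4 under EWS-FLI1 (66.7% called in each), with medians of -0.30 and -0.28 on the log2 scale. EPOP, an Elongin-binding partner of PRC2, rose by log2 0.94 ± 0.19 (adjusted p = 0.000203) and 1.06 ± 0.19 (adjusted p = 4.71e-05), from 13.1 to 16.5 CPM in the libraries without ARID1A to 26.7 to 35.1 CPM. LCOR, whose long isoform is a PRC2 partner, rose by 0.81 and 0.79, while its relative LCORL fell by 0.68 and 0.62. The Polycomb-like genes PHF1 (-0.39 and -0.81) and PHF19 (-0.45 and -0.46) fell as MTF2 did, so that all 3 genes of that family were called lower in both.

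Of 10 further genes of canonical PRC1, 2 rose and 4 fell with the empty vector, and 3 rose and 4 fell with EWS-FLI1 (60.0% and 70.0% called, medians 0.03 and -0.09). CBX6 rose by log2 1.28 ± 0.12 (adjusted p = 2.99e-10) and 1.28 ± 0.12 (adjusted p = 2.86e-10), from 122 to 136 CPM to 281 to 335 CPM. CBX8 fell by 1.28 and 1.20 on the log2 scale, from 20.8 to 28.3 CPM to 7.78 to 12.7 CPM, and the sex-comb relative SCML1 fell by 0.72 and 0.77. CBX7 rose (1.04 and 0.99), and PCGF2, the paralogue of BMI1 (-0.70 and -0.92), and the Polyhomeotic gene PHC1 (-0.56 and -0.57) fell, but 21.6%, 61.5% and 18% of their exon bases are shared with other genes, so their counts are less certain.

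Of 23 genes of variant PRC1, which lacks CBX readers, 5 rose and 7 fell in the empty-vector comparison, against 6 and 9 under EWS-FLI1 (52.2% and 65.2% called, medians -0.20 and -0.09). PCGF1, the PCGF of the KDM2B-containing complex, fell by 1.35 and 1.57 on the log2 scale (adjusted p = 1.09e-09 and 4.72e-11), from 52.1 to 59.8 CPM to 19.5 to 22.3 CPM. RYBP, which replaces CBX proteins on the RING subunits, fell by 0.88 and 0.95. MGA, the DNA-binding subunit of the PCGF6 complex, rose by 1.15 and 1.25, and BCORL1 by 0.99 and 0.88. L3MBTL2 (0.84 and 0.81) rose and SKP1 (-1.72 and -1.26) fell, with 23.2% and 10.6% of their exon bases shared with other genes. SKP1 had only 73 to 280 counts in a library on 12697 exon bases. Fragments with several alignments or on exons of other genes were not counted, so its fall is less certain. How many of its fragments were lost in this way was not tested. Of 12 genes of the Polycomb deubiquitinase and the demethylases that oppose PRC2, 2 rose and 2 fell in the empty-vector comparison, against 3 and 3 under EWS-FLI1. These are 33.3% and 50% called, the first being the share of all genes. ASXL2, a partner of the deubiquitinase, rose by 1.12 and 1.26, while its paralogue ASXL1 fell by 0.57 and 0.79. FOXK1 rose by 0.77 and 0.71, and MBD6, with 10.3% of its exon bases shared with other genes, fell by 0.59 and 0.59.

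**Figure D3:**
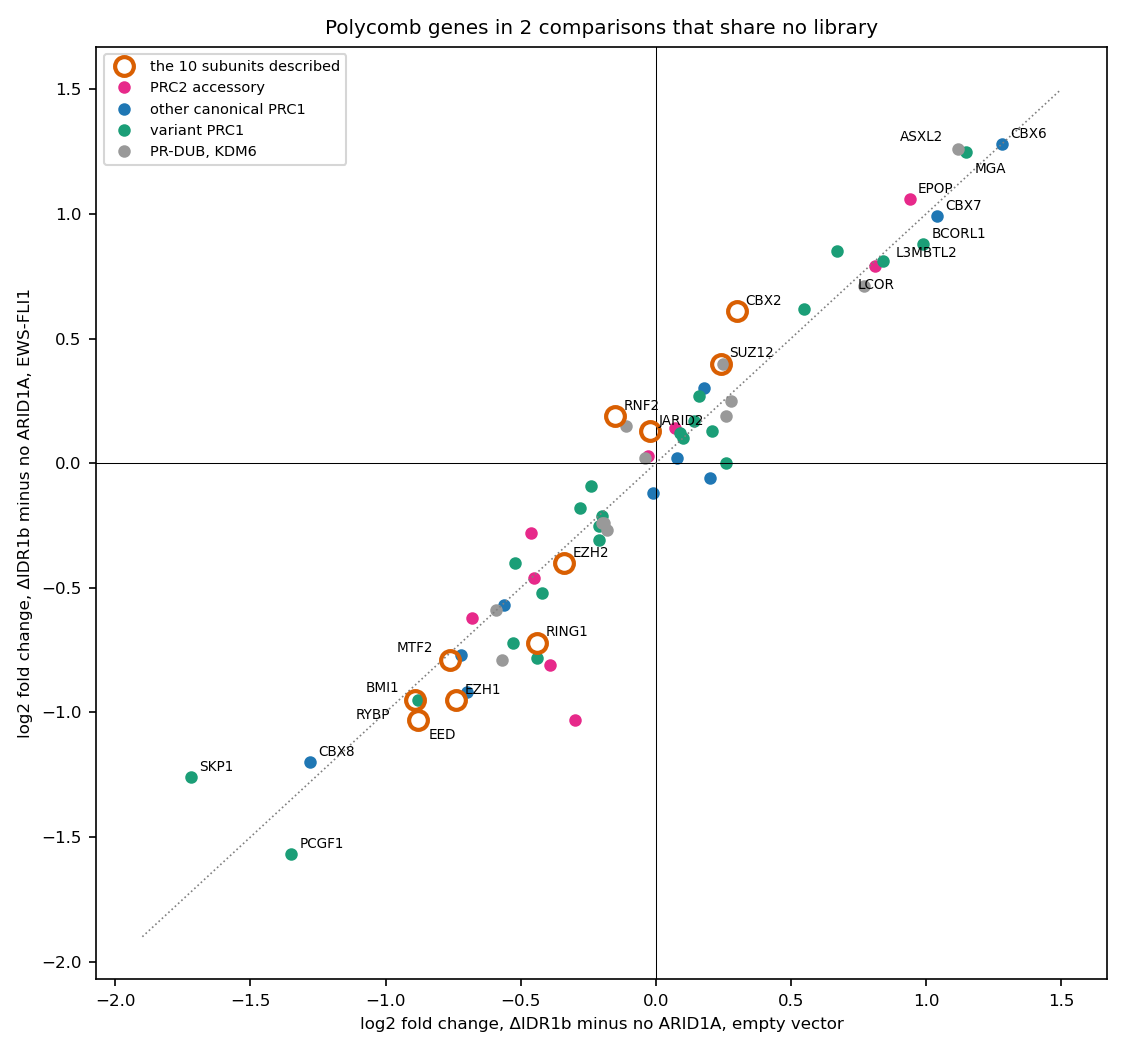
Log2 fold change of ΔIDR1b against no ARID1A with the empty vector (x axis) and with EWS-FLI1 (y axis) for the 10 subunits (open orange circles) and other Polycomb genes (small filled circles); the dotted line marks equal values. BMI1 at -0.89 and -0.95 and CBX6 at 1.28 and 1.28 lie on opposite sides of 0 in comparisons that share no library.

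Textbook targets of Polycomb, 35 of the 40 listed having enough counts, did not move in 1 direction. With ΔIDR1b against no ARID1A, 9 rose and 9 fell in the empty-vector comparison, and 7 rose and 8 fell in that with EWS-FLI1 (51.4% and 42.9% called). Over all genes 33.3% and 35.9% were called, 16.4% and 18.1% upward and 16.8% and 17.9% downward. The medians of the targets were 0.11 and 0.15 on the log2 scale against 0.00 and 0.02 over all genes. WT1 (1.00 and 0.87), OLIG2 (0.89 and 0.74) and WNT5A (0.76 and 0.80) rose from low levels, between 7.03 and 8.83 CPM in the group means without ARID1A. ZIC1 rose (3.28 and 1.84) from group means of 0.298 and 0.686 CPM without ARID1A. It met the minimum mean of 1 CPM only through the ΔIDR1b libraries, at 1.53 and 4.42 CPM with the empty vector and 2.68 and 2.29 CPM with EWS-FLI1. Its place among the named genes thus depended on its rise. ZIC2 (-1.07 and -1.18) and DLX5 (-1.58 and -1.39) fell, ZIC2 from means of 123 and 121 CPM to 58.5 and 53.6 CPM. E2F and replication genes were counted because dividing cells make more of several PRC2 subunits. Of these, 6 of 24 rose and 6 fell with each vector (50% called, against 33.3% and 35.9% of all genes). MKI67 (0.96 and 0.78), E2F2 (0.80 and 0.84), MCM6 (0.56 and 0.53) and CDC6 (0.52 and 0.50) rose. CDK1 (-0.58 and -0.66) and CCNA2 (-0.66 and -0.47) fell. The part of E2F and replication genes in the levels of the 10 subunits was not tested. No gene of any of the 6 lists was called for EWS-FLI1 in any state or in the average, by edgeR or DESeq2, and at most 4 of a list had an unadjusted p under 0.05.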

How the data were processed

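The deposited files hold counts of read pairs per gene name, which the authors obtained with featureCounts 2.0.1, per the file headers. The headers name the exons of GENCODE 41 and GRCh38.p13 as annotation and genome, a requirement that both mates align, and no setting for strand. With these settings a fragment with several alignments, or one lying on exons of more than 1 gene, adds to no gene. The submitters' processing notes also name STAR, SAMtools and edgeR; the version of STAR is not given in the sources used here. From these counts, genes were kept by filterByExpr (minimum count 10, minimum total 15), which kept between 99.79 and 99.87% of the counts in a library. A quasi-likelihood model with 1 mean per group over all 12 libraries was fitted with edgeR 4.0.16 (limma 3.58.1, R 4.3.3), TMM factors and Benjamini-Hochberg adjustment within each of 13 contrasts, and called at 0.05. Common biological variation was 10.1%, with 6 residual degrees of freedom. The procedure was tested on simulated data. Alternatives were RLE and upper-quartile factors, no filter, DESeq2 1.42.0, only the libraries compared, a replicate block, removal of trends with exon length and GC content, and leaving out each library.

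The 10 members and all lists were chosen with earlier results of these data known. List genes were named by size, up to 6 per pair of ARID1A states, among those called in both vectors in the same direction with a mean of at least 1 CPM and no overlap between libraries. The text names those of ΔIDR1b against no ARID1A. Lists are given as counts and medians, with no set test, and 1 listed gene is not reported here. The counts of repeats differed by more than sampling noise in every group, with a chi-square per degree of freedom from 3.13 to 13.6.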

Additional observations from a re-analysis of the deposited data

How the results depend on the processing

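Over 21 alternatives, 12 of which leave out 1 library, 16 of the 29 calls of members kept their direction and their side of the threshold in every one, and 0 reversed. These were EZH1, EED and MTF2 in the 4 comparisons of ΔIDR1b, BMI1 against no ARID1A with both vectors, and RING1 and CBX2 for ΔIDR1b against no ARID1A with EWS-FLI1. For WT against no ARID1A with the empty vector, the count of called members went from 0 to 1 with RLE or upper-quartile factors, to 2 with only the libraries compared, to 4 with trends of length and GC removed, and to between 0 and 2 on leaving out single libraries. With EWS-FLI1 it went from 5 to 2 with only the libraries compared and to between 0 and 6 on leaving out single libraries. For ΔIDR1b against WT it went from 5 to 3 with only the libraries compared (EWS-FLI1) and to between 3 and 7 on leaving out single libraries (empty vector). For EWS-FLI1 with WT and in the average it went from 0 to between 0 and 1 on leaving out single libraries. The cause was not tested. Nothing in the labels ties equal repeat numbers together. Differences between the repeats correlated between groups at 0.0822 to 0.352 with the same vector and at -0.172 to -0.00533 with different vectors, over 12288 genes. A replicate block within each vector gave 2 called members for WT against no ARID1A with the empty vector, and 4 together with the removal of trends. It changed no other count of members by over 1.5 times. It also put single genes past the threshold. Between ΔIDR1b and WT these were RNF2 and RING1 in the empty-vector libraries (log2 -0.31 and -0.30, adjusted p = 0.0297 and 0.0239) and RING1 and JARID2 in those with EWS-FLI1 (-0.32 and 0.34, 0.0193 and 0.0308). Relative to no ARID1A they were CBX2 in the empty-vector libraries of ΔIDR1b (0.30, 0.0277) and MTF2 in the EWS-FLI1 libraries of WT (-0.26, 0.0188). Calls over all genes also moved: for EWS-FLI1 with WT from 45 to 260, with ΔIDR1b from 35 to 177 and in the average from 95 to 532 with the block within each vector. Over all alternatives they ran from 802 to 4154 (as reported, 2381) and from 1828 to 5230 (3684) for WT against no ARID1A, from 4484 to 8063 (6778) for ΔIDR1b against no ARID1A with the empty vector, and from 2754 to 6683 (4995) and from 1620 to 5928 (3785) for ΔIDR1b against WT. Where 1 library is left in a group, it is assumed to vary like the others. The fit of only the libraries compared gives no separate value for the average of the states.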
